A study of Mus musculus with 2 samples.

Results

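The mir-23/27/24 genes form 2 related clusters of microRNA hairpins, and 6 gene rows of the count tables for embryonic mouse heart belong to them. Cluster a holds Mir23a, Mir27a and Mir24-2, and cluster b holds Mir23b, Mir27b and Mir3074-1. The 6 members were found by matching the Ensembl identifier of each row, without its version, to these symbols in GENCODE M21, and they are 6 of 1973 gene rows. Heart tissue of B6NCrl embryos, male and female pooled, was taken at embryonic day 12.5, and its small RNA was sequenced. The 2 libraries are numbered as biological replicates 1 and 2 of 1 group without treatment or mutation, so no contrast between conditions could be made. They are separate biosamples under 1 donor record, and whether they came from separate litters is not given in the sources used here. Replicate 1 held 4478599 counts and replicate 2 held 5279908 counts on the strand of a microRNA gene, called sense counts here. Levels are given as CPM, the sense counts of a gene per 1000000 sense counts of its library. All intervals and count limits describe counting error alone, since the labels mention no molecular identifiers.

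A microRNA is cut from a hairpin in a longer primary transcript, and its bases 2 to 8, the seed, pair with target messages. In vertebrates the hairpins of miR-23, miR-27 and miR-24 lie close together at several places in the genome, so that 1 transcript can give rise to all of them. The miR-23 and miR-27 families are known for roles in blood vessel growth, and members of all of these families have been linked to growth or survival of heart muscle cells. Mir3074-1 is a hairpin annotated on the strand opposite to Mir24-1, the miR-24 gene of cluster b.

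Mature sequences from RefSeq (GRCm38.p6) show what sets the copies apart. The seed is in capitals, and the first set gives the 3′ arms, on which the families are defined.
miR-23a-3p: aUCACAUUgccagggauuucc
miR-27a-3p: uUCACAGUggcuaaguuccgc
miR-27b-3p: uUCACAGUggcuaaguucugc
miR-24-3p: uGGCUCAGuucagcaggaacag

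The miR-27 arms of the clusters shared their seed and their first 18 bases, and differed in 21 bases by C19U, counted from the 5′ end with the miR-27a-3p base first. The first 18 bases of miR-23a-3p, its seed among them, were also found in the Mir23b hairpin. The sequence of miR-24-3p was the same for Mir24-2 and Mir24-1 over all 22 bases. A read of it therefore fits both genes, and a read with several possible places was counted for no gene. The seed of miR-24-3p was shared with 4 other mature microRNAs of the table, miR-5124b, miR-6369, miR-6410 and miR-6413, whose genes stood at 0 counts in both libraries. Among the mature sequences of the table, the seed of the miR-27 3′ arms was found only at Mir27a and Mir27b.

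The 5′ arms, shown because they distinguish the copies of miR-24, differed more between clusters.
miR-23a-5p: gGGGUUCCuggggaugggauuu
miR-23b-5p: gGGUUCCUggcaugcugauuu
miR-27a-5p: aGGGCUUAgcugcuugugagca
miR-27b-5p: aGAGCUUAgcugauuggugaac
miR-24-2-5p: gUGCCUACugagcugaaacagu
miR-24-1-5p: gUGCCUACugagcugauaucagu
miR-3074-5p: gUUCCUGCugaacugagccagu

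The 5′ arms of miR-24 shared their first 16 bases and those of miR-27 their first 2, and the miR-27 pair differed at 8 of 22 positions. The sequence of miR-3074-5p, from the opposite strand, was found whole at both miR-24 loci. The deposited counts are per hairpin and do not separate the arms, so no level can be given for a single mature sequence.

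Whole hairpins of the miR-24 and miR-27 genes, with the mature arms in capitals, show how much of each is shared.
Mir24-2: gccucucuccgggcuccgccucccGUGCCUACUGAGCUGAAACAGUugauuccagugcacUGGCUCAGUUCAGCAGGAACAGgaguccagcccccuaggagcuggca
Mir24-1: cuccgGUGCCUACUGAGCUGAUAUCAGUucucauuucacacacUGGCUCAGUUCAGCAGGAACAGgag
Mir27a: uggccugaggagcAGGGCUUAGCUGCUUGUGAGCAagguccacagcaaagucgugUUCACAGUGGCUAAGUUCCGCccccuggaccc
Mir27b: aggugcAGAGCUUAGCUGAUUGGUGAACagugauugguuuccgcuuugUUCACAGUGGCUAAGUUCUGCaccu

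The longest stretch common to the hairpins of a pair was 28 bases for Mir24-2 and Mir24-1, and 20 bases each for Mir27a and Mir27b and for Mir23a and Mir23b. Over their global alignment the Mir23 hairpins were identical in 59 of 80 columns (73.8%), the Mir27 hairpins in 57 of 93 (61.3%) and the Mir24 hairpins in 60 of 110 (54.5%). Of the 7 hairpins, Mir24-1 included, 3 held a 22-base window that also occurs in a hairpin at another locus. These were Mir24-2, Mir24-1 and Mir3074-1. Among all 1005 hairpins of the RefSeq table, 106 (10.5%) held such a window. The Mir23 and Mir27 hairpins held 0 such windows, so a read of 22 bases or more from them fits 1 hairpin of the table. Each also held 1 window of 20 bases found at another locus, so a read of 20 bases or fewer can fit more than 1 hairpin. How many such reads there were was not analysed here. Members ranged from 47.9% GC in Mir27b to 61.7% in Mir24-2, around the median of 51.7% for all hairpins of the table. By predicted folding energy per base, in kcal/mol, Mir27b was lowest at −0.54 and Mir23b highest at −0.39, against a median of −0.41 for all hairpins.

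On GRCm38, the assembly also called mm10, cluster a lies on the plus strand of chromosome 8 and cluster b on chromosome 13. Mir23a (ENSMUSG00000065611.1) spans 84208518 to 84208592, Mir27a (ENSMUSG00000065444.1) spans 84208672 to 84208758 and Mir24-2 (ENSMUSG00000065541.1) spans 84208815 to 84208921. The Mir23a and Mir27a hairpins overlap no other annotated gene, and the last 2 bases of Mir24-2 overlap an exon of the long noncoding RNA Gm26532. Mir23b (ENSMUSG00000065599.1) spans 63300484 to 63300557, within an intron of 2010111I01Rik, the gene also called Aopep, and of Fancc on the other strand. Mir27b (ENSMUSG00000065475.1) spans 63300712 to 63300784 of the same gene and overlaps an exon of 1 transcript annotated for nonsense-mediated decay. Mir3074-1 (ENSMUSG00000092741.1) spans 63301199 to 63301283 on the minus strand, opposite to Mir24-1 at 63301208 to 63301275. Cluster a is the more compact, with a span of 404 bases, against 792 bases from Mir23b to Mir24-1. The gap between the Mir23 and Mir27 hairpins is 79 bases in cluster a and 154 bases in cluster b, and that between the Mir27 and Mir24 hairpins is 56 bases in cluster a and 423 bases in cluster b.

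**Figure D1:**
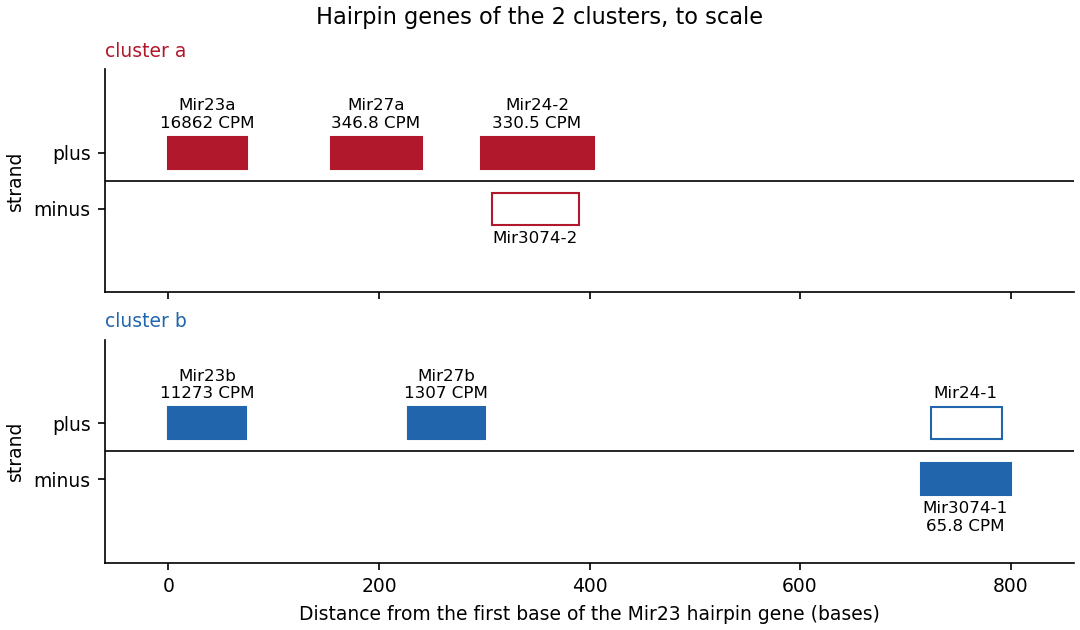
Hairpin genes of cluster a (upper) and cluster b (lower), drawn to scale by distance in bases from the first base of the Mir23 hairpin gene, with the strand on the vertical axis and the mean CPM of 2 libraries beside each counted gene. Open boxes are annotated microRNAs with no row of their own in the tables. Cluster a spans 404 bases and cluster b 792 bases.

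Among reads that fit 1 place, both miR-23 genes were abundant in the embryonic heart, while their cluster neighbours were far lower. The 6 members together held 3.02% ± 0.173 (SD, n = 2) of all sense counts, and Mir23a and Mir23b made up 93.2% ± 0.802 (SD, n = 2) of that. Mir23a, which in rodents has been linked to growth of heart muscle cells, had 80228 counts (17914 CPM) in replicate 1 and 83472 counts (15809 CPM) in replicate 2. It averaged 16862 ± 1488 CPM (SD, n = 2) and stood at place 17 of all genes by mean CPM. Mir23b, its counterpart in cluster b, had 51654 counts (11534 CPM) in replicate 1 and 58146 counts (11013 CPM) in replicate 2. With a mean of 11273 ± 368 CPM (SD, n = 2) it stood directly below Mir23a, at place 18. These ranks count only reads that fit 1 place, and genes with near-identical copies lack the reads shared between the copies. In bulk tissue, fewer cells of a type and less RNA per cell cannot be told apart, and these levels do not say which heart cells hold the microRNAs.

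The miR-27 genes were led by the copy in cluster b. Mir27b, a regulator of lipid and blood vessel genes in mammals, had 5560 counts (1241 CPM) in replicate 1 and 7244 counts (1372 CPM) in replicate 2. Its mean of 1307 ± 92.3 CPM (SD, n = 2) gave place 72. Mir27a had 1470 counts (328 CPM) in replicate 1 and 1929 counts (365 CPM) in replicate 2, a mean of 347 ± 26.2 CPM (SD, n = 2) at place 117. Both genes lay well above the limit that a count of 0 allows, 0.670 CPM in replicate 1 and 0.568 CPM in replicate 2.

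The miR-24 hairpins can be followed only through reads that fit 1 place. Mir24-2, whose microRNA is known from the infarcted mouse heart, had 1447 counts (323 CPM) in replicate 1 and 1784 counts (338 CPM) in replicate 2. Its mean was 330.5 ± 10.5 CPM (SD, n = 2), at place 119. Mir3074-1 was the lowest member, with 310 counts (69.2 CPM) in replicate 1 and 329 counts (62.3 CPM) in replicate 2. Its mean was 65.8 ± 4.88 CPM (SD, n = 2), at place 200. Reads of miR-24-3p itself are outside these values, so neither Mir24-2 nor the row of Mir3074-1 measures the total of miR-24. Reads of miR-3074-5p also fit both loci, so the row of Mir3074-1 does not measure the total of miR-3074-5p. For each sense count there were 0.559 such multiply placed reads in replicate 1 and 0.507 in replicate 2, and how many of them are miR-24-3p was not analysed here.

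**Figure D2:**
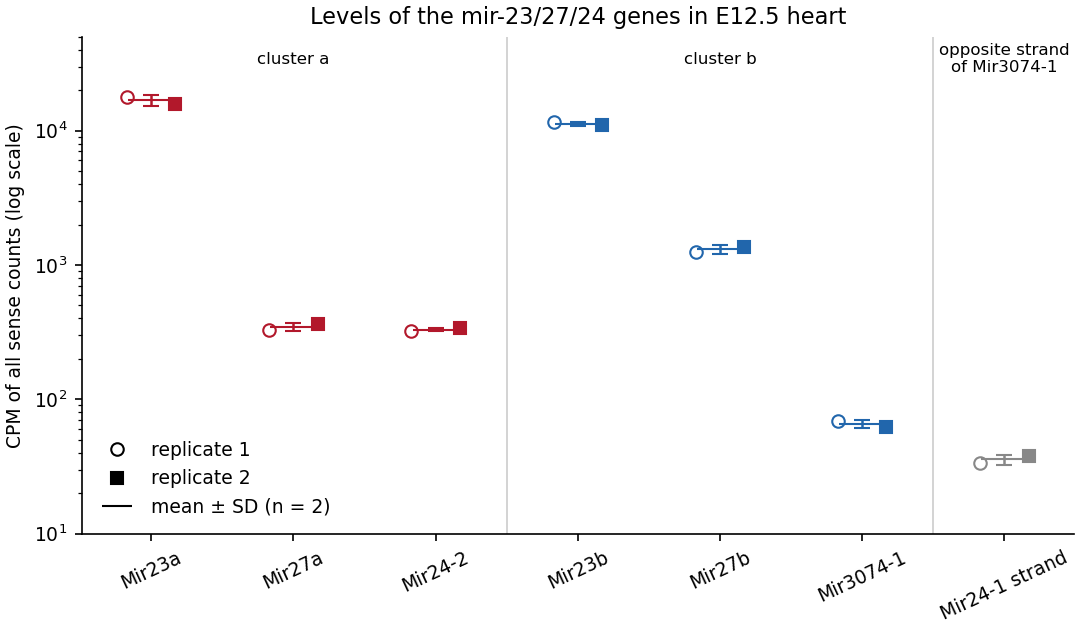
Level of each member in CPM of all sense counts, on a log axis, for cluster a (red), cluster b (blue) and the counts on the strand opposite to Mir3074-1 (grey). Circles are replicate 1, squares replicate 2, and bars the mean ± SD (n = 2). Mir23a and Mir23b stand highest, at means of 16862 and 11273 CPM, then Mir27b at 1307 CPM and Mir27a and Mir24-2 between 323 and 365 CPM.

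In the order of levels, Mir23a, Mir23b, Mir27b, Mir27a, Mir24-2 and Mir3074-1, neighbours did not overlap between libraries except for Mir27a and Mir24-2. The lowest Mir27a value, 328 CPM, lay below the highest Mir24-2 value, 338 CPM, and the ratio of Mir27a to Mir24-2 was 1.05 ± 0.0462 (SD, n = 2). Reads of miR-24-3p fit both miR-24 loci and are outside the Mir24-2 counts. The counts of Mir3074-1 likewise lack the reads that fit both loci. The places of Mir24-2 and Mir3074-1 in this order, and the ratio of Mir27a to Mir24-2, therefore do not compare whole hairpins. With counts divided by the annotated length of the hairpin gene, the order was the same, at 22482 ± 1984 CPM per 100 bases for Mir23a and 15234 ± 498 for Mir23b. On that scale Mir27b stood at 1790.0 ± 126 CPM per 100 bases, Mir27a at 399 ± 30.2, Mir24-2 at 309 ± 9.78 and Mir3074-1 at 77.4 ± 5.75 (SD, n = 2 each). A microRNA read covers a whole mature arm, not a random stretch of the hairpin gene, whose annotated length ran from 73 to 107 bases here.

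The leading cluster differed between the families, with miR-23 counts higher from cluster a and miR-27 counts higher from cluster b. Mir23a exceeded Mir23b by a ratio of 1.55 (95% counting interval 1.54 to 1.57) in replicate 1 and 1.44 (1.42 to 1.45) in replicate 2, a mean of 1.49 ± 0.0832 (SD, n = 2). Mir27a stood at a ratio of 0.264 (95% counting interval 0.249 to 0.2801) to Mir27b in replicate 1 and 0.266 (0.253 to 0.28004) in replicate 2, a mean of 0.265 ± 0.00134 (SD, n = 2). The excess of Mir23a over Mir23b was larger than the spread between the libraries, and so was the deficit of Mir27a to Mir27b. Expressed as shares, Mir23a held 59.9% ± 1.34 (SD, n = 2) of the miR-23 counts and Mir27a held 20.97% ± 0.0840 (SD, n = 2) of the miR-27 counts. Per annotated base the ratios were 1.47 ± 0.0821 for miR-23 and 0.223 ± 0.00113 for miR-27 (SD, n = 2 each). With 2 libraries of 1 group no test of these ratios was made, and an error that both libraries share would not appear in their spread.

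Summed over its members, cluster a held 1.75% ± 0.145 and cluster b 1.26% ± 0.0281 of all sense counts (SD, n = 2 each). The ratio of cluster a to cluster b was 1.45 in replicate 1 and 1.33 in replicate 2. Among the counts assigned to its members, each cluster was carried by its miR-23 gene. Mir23a made up 96.1% ± 0.531 of cluster a and Mir23b 89.1% ± 0.933 of cluster b (SD, n = 2 each). Mir27a made up 1.99% ± 0.314 of cluster a and Mir27b 10.3% ± 0.960 of cluster b (SD, n = 2 each). Reads that fit both miR-24 loci were counted for no gene, so they are outside these sums, shares and ratios. The sum of cluster b holds Mir3074-1, from the opposite strand, and not Mir24-1. The total of miR-24 in either cluster was therefore not measured.

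Within each cluster the miR-23 gene stood above the miR-27 gene, and the ratio was larger in cluster a. Mir23a exceeded Mir27a by a ratio of 54.6 (95% counting interval 51.8 to 57.5) in replicate 1 and 43.3 (41.4 to 45.3) in replicate 2, a mean of 48.9 ± 7.99 (SD, n = 2). Mir23b exceeded Mir27b by a ratio of 9.29 (9.04 to 9.55) in replicate 1 and 8.03 (7.83 to 8.23) in replicate 2, a mean of 8.66 ± 0.893 (SD, n = 2). The ratio in cluster a was 5.87 times that in cluster b in replicate 1 and 5.39 times in replicate 2. Mir23a exceeded Mir24-2 by a ratio of 51.1 ± 6.12 (SD, n = 2). Mir27a and Mir24-2, the next hairpins along cluster a, overlapped, at the ratio of 1.05 given above. In cluster b Mir27b exceeded Mir3074-1 by a ratio of 19.98 ± 2.89 (SD, n = 2). Mir3074-1 lies on the minus strand, opposite to Mir24-1, so these ratios do not compare like hairpins. Both families together gave a ratio of miR-23 to miR-27 counts of 17.1 ± 2.35 (SD, n = 2). Reads of miR-24-3p fit both miR-24 loci and are outside the Mir24-2 counts, so ratios to Mir24-2 do not compare whole hairpins. Other reads that fit several places are outside these ratios too, and their part in them was not tested.

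The strand opposite to Mir3074-1, where GENCODE M21 places Mir24-1, held 150 counts (33.5 CPM) in replicate 1 and 200 counts (37.9 CPM) in replicate 2. Of all counts at that locus, 32.6% (95% exact Clopper-Pearson interval 28.3 to 37.1) in replicate 1 and 37.8% (33.7 to 42.1) in replicate 2 lay on the Mir24-1 strand. Among reads that fit 1 place, the balance at the other miR-24 locus was the reverse. Opposite to Mir24-2, where Mir3074-2 is annotated, 1 count was found in replicate 1 and 0 in replicate 2, against 1447 and 1784 counts on the Mir24-2 strand. The remaining members, Mir23a, Mir27a, Mir23b and Mir27b, had 0 counts on their opposite strand in both libraries. Mir24-2 counts exceeded those on the Mir24-1 strand by a ratio of 9.65 (95% counting interval 8.15 to 11.5) in replicate 1 and 8.92 (7.70 to 10.4) in replicate 2. Per annotated base the mean ratio was 5.90 ± 0.327 (SD, n = 2). The counts of both miR-24 loci come from reads that fit 1 place. Reads of miR-24-3p and of miR-3074-5p, each found whole at both loci, are outside them. No comparison of either microRNA between the loci can be drawn from these counts. Nor do the strand shares measure the balance of miR-24-3p and miR-3074-5p at a locus.

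Between the libraries the members differed little. Of the 6, 0 were past a 2-fold ratio, while 7 of 444 genes with at least 10 counts in total (1.58%) were, so a count of 0 is near that background. On the scale of log2(CPM + 1), replicate 2 minus replicate 1, the differences were −0.18 for Mir23a, −0.07 for Mir23b and −0.15 for Mir3074-1. They were 0.15 for Mir27a, 0.14 for Mir27b and 0.06 for Mir24-2. The median absolute difference of the members was 0.15, against 0.17 for the 444 genes and 0.11 for the 214 genes that averaged 50 CPM or more. Both miR-23 genes were lower and both miR-27 genes higher in replicate 2. For Mir23a the ratio of replicate 2 to replicate 1 was 0.883 (95% counting interval 0.874 to 0.891), for Mir23b 0.955 (0.944 to 0.966), for Mir27a 1.11 (1.04 to 1.19) and for Mir27b 1.11 (1.07 to 1.14). These intervals leave out 1, but they hold counting error alone, and 1 library a side allows no test of the replicates.

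Of the markers of other cell types and tissues, some were past 2-fold between the same libraries and others were not. Mir451a, an erythroid microRNA, had 770 CPM in replicate 1 and 1671 CPM in replicate 2, and the hepatocyte Mir122 had 181 CPM in replicate 1 and 32.4 CPM in replicate 2, both past 2-fold. Mir144, the other erythroid gene listed, was slightly lower in replicate 2, at 156 CPM in replicate 1 and 139.8 CPM in replicate 2. Their part in the differences of the members was not tested. The white blood cell genes Mir223 and Mir155 summed to 309.9 and 322 CPM in replicates 1 and 2, and the skeletal muscle genes Mir206 and Mir133b to 34.6 and 28.4 CPM. Mir143 and Mir145a, listed here for smooth muscle, summed to 88791 and 90499 CPM, with Mir143 alone at a mean of 88442 CPM. Of these 6 genes, 0 were past 2-fold. How much of each sum comes from the cell type named was not tested. The heart muscle genes Mir208a, Mir208b and Mir499, listed here as markers of that cell type, summed to 63958 and 61924 CPM in replicates 1 and 2. Of the listed neural genes, Mir9-2 had 0 counts and Mir124a-1 had 0 and 1 counts. Mir9-3, a miR-9 gene outside the list, averaged 1.38 CPM. Since miR-9 and miR-124 each come from several loci with the same mature sequence, these counts do not show that the microRNAs were absent.

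**Figure D3:**
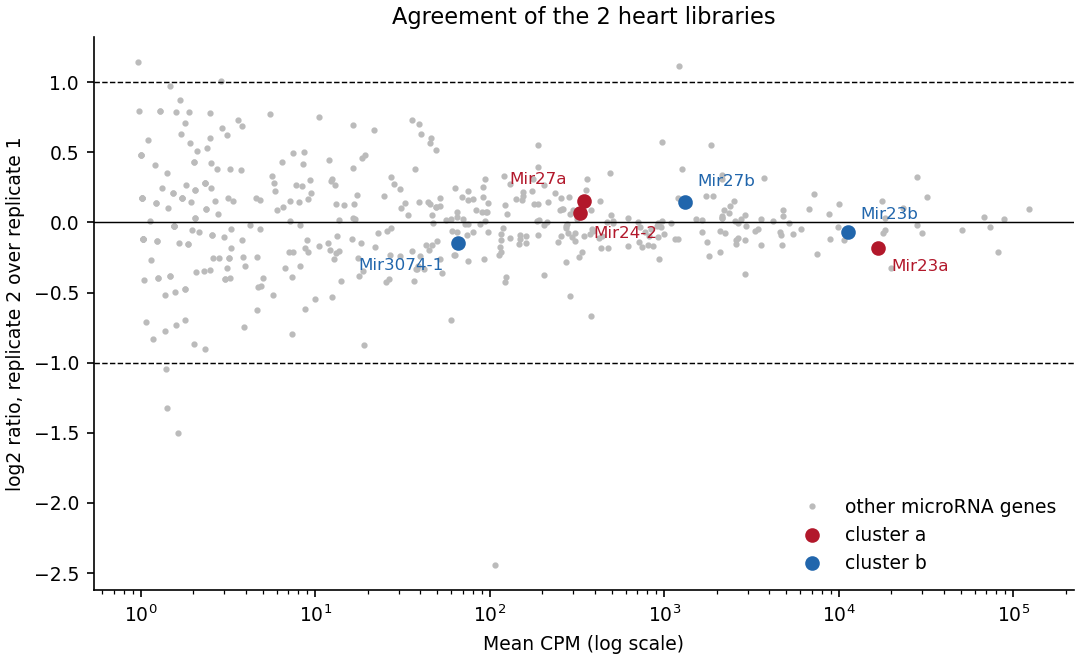
Difference between the libraries, as the log2 ratio of CPM + 1 in replicate 2 over replicate 1, against mean CPM on a log axis, for 444 microRNA genes with at least 10 counts in total. Members of cluster a are red and those of cluster b blue, other genes are grey, and dashed lines mark 2-fold. All 6 members lie between −0.18 and 0.15.

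Pairs of microRNA genes were taken that share a number and carry the letters a and b, without a copy number. Among these, the miR-23 genes stood close together. In 24 such pairs at least 1 gene reached 10 CPM in each library, and their median absolute difference was 2.74 on the scale of log2(CPM + 1). The Mir23a and Mir23b pair differed by 0.58 ± 0.08 (SD, n = 2), the second smallest of the 24, after Mir291a and Mir291b at 0.53 ± 0.36. It was followed by Mir302a and Mir302b at 0.92 ± 0.15, and these 3 pairs were the ones within 2-fold. The Mir27a and Mir27b pair differed by −1.91 ± 0.01 (SD, n = 2), at place 6, between Mir200a and Mir200b at −1.57 ± 0.08 and Mir99a and Mir99b at 2.04 ± 0.03. The a gene was the higher in 18 pairs and the b gene in 6, the Mir27 pair among them. The pair farthest apart was Mir21a, at 28206 CPM, and Mir21b, which had 0 counts in replicate 1 and 1 count in replicate 2. For that pair and the others among 5 in which the b gene averaged fewer than 3 counts, the plotted difference depends on the pseudocount. Names of this form do not all mark the same degree of likeness, and some pairs share reads that fit several places, so these places describe the tables and are not a test.

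**Figure D4:**
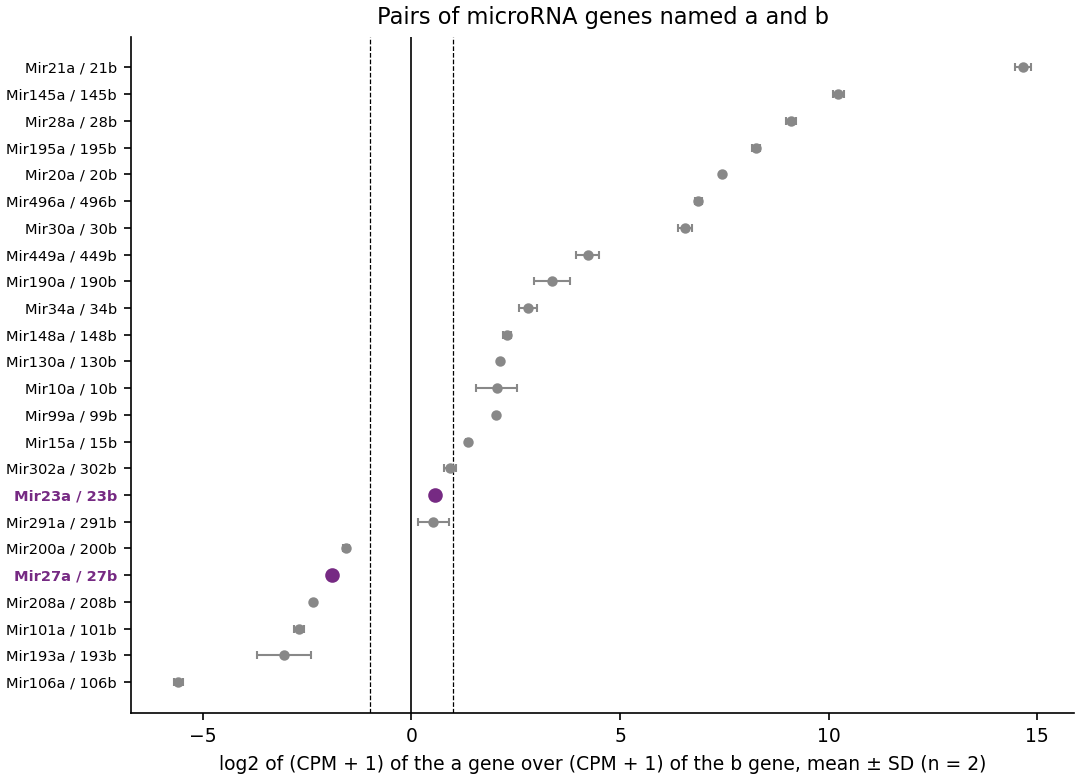
Difference within 24 pairs of microRNA genes named a and b, as log2 of CPM + 1 of the a gene over CPM + 1 of the b gene, mean ± SD (n = 2), ordered from highest to lowest. Genes with a copy number in their name are left out. The Mir23 pair, at 0.58, and the Mir27 pair, at −1.91, are in purple, and dashed lines mark 2-fold. In 5 pairs the b gene averaged fewer than 3 counts and the difference depends on the pseudocount of 1 CPM.

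Genes of like level were named by the smallest difference in log2(mean CPM + 1) directly above and below each member, over 2 libraries. The gene above Mir23a was Mir30a at 17655 ± 1304 CPM (SD, n = 2), which overlapped it between libraries, and the gene below Mir23b was Mir652 at 10772 ± 650 CPM (SD, n = 2), which also overlapped. Around Mir27b stood Mir28a at 1389.6 ± 91.4 CPM and Mir301 at 1255 ± 234 CPM (SD, n = 2 each). Mir27a and Mir24-2 lay among Mir676 at 347 ± 16.7 CPM, Mir370 at 337 ± 34.5 CPM and Mir323 at 323 ± 39.6 CPM (SD, n = 2 each). Mir3074-1 lay between Mir450-1 at 69.6 ± 6.26 CPM and Mir30c-1 at 65.1 ± 2.44 CPM (SD, n = 2 each).

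Other microRNAs known from blood vessels spanned a wide range around the members. Of the 8 analysed here, Mir126a, an endothelial microRNA, and Mir130a lay above both Mir23b and Mir23a, at 67897 ± 1234 and 18421 ± 297 CPM (SD, n = 2 each). Mir296 stood at 2636 ± 141 CPM and the hypoxia-linked Mir210 at 964 ± 3.53 CPM, on either side of Mir27b. The 4 others, Mir218-1, Mir218-2, Mir221 and Mir222, lay below Mir27a, and 0 of the 8 were past 2-fold between the libraries. Mir218-1 and Mir218-2 are numbered copies, and any reads shared between them are outside their counts. Mir23a and Mir23b, summed, held 2.81% ± 0.186 of the sense counts (SD, n = 2), against 9.002% for that list.

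Among 12 microRNAs linked to growth of heart muscle, Mir208b and Mir21a lay above Mir23a, at 50918 ± 1313 and 28206 ± 209 CPM (SD, n = 2 each). Mir208a, from an intron of the myosin gene Myh6, lay below Mir23b at 9885 ± 160 CPM, and Mir214 and Mir499 followed at 3455 ± 73.5 and 2138 ± 34.1 CPM (SD, n = 2 each). Mir199b at 509.5 ± 2.85 CPM lay between Mir27b and Mir27a, and the other 6 lay below Mir27a, from Mir195a at 306 ± 19.6 CPM downward. Near-identical copies exist for several of the low genes, Mir133a-1 and Mir1a-1 among them, and their counts lack the reads shared between copies.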

How the data were processed

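The authors deposited 1 table of raw counts per library, with a row for each microRNA gene. Deposited description files name mm10 as assembly and M4 as annotation, while the tools for alignment and counting were not given in the sources used here. The 3 count columns have no names. Their sums, equal within a library once the 4 rows that name no gene are added, and their sizes showed that they hold unstranded counts, counts on the strand of the gene and counts opposite to it. The sense column gave all main results. Library sizes left out the rows that name no gene. Of the reads in replicate 1, 27.1% fitted several places, 18.1% were unmapped and 6.29% lay on the strand of no gene. The last share includes reads opposite to a gene. The shares in replicate 2 were 25.3%, 19.1% and 5.88%.

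Names and positions came from GENCODE M21, which matched 1894 of 1973 identifiers, and sequences from a RefSeq table of GRCm38.p6, which held a hairpin for all 6 members. Log2 ratios used a pseudocount of 1 CPM and 2-fold was the call. Intervals are exact binomial at 95%, and a count of 0 was taken to allow 3 counts. No count test was run, since there is 1 group. TMM from edgeR 4.0.16 and size factors from DESeq2 1.42.0 in R 4.3.3 served as alternative scalings. Hairpins were folded with ViennaRNA 2.7.2 and aligned with biopython 1.88. Other steps used Python 3.11.15, numpy 2.4.6, pandas 2.3.3, scipy 1.17.1 and matplotlib 3.10.9. The ratios and intervals were tested first on simulated counts with counting error alone. That setting has no further spread between libraries, so it cannot show how the intervals perform where such spread exists.

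The genes named are the members, the gene above and below each in level, genes sharing a seed, the a/b pairs at the ends and nearest to the members, and lists of vessel, heart growth and cell type microRNAs. Of the listed genes, Mir126b and Mir9-1 were not analysed here. The members and lists were chosen with earlier results of these data known.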

Additional observations from a re-analysis of the deposited data

Results flagged for a closer look

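Reads outside the sense counts stood above the limit that a count of 0 allows at 1 member. On the strand opposite to Mir3074-1, where Mir24-1 is annotated, 150 and 200 counts were found in replicates 1 and 2. Reads that fit several places, which include any read of miR-24-3p, numbered 2503492 and 2677232 in replicates 1 and 2. Their division among genes was not analysed here.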

How the results depend on the processing

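Of 129 alternative values for 29 results, 89 stayed within the spread between replicates or within the tolerance set for counts and places, 40 moved further and 0 changed sign. With all reads as the denominator, mean levels were 8280.4 CPM for Mir23a, 171 for Mir27a, 162 for Mir24-2, 5539 for Mir23b, 643 for Mir27b and 32.3 for Mir3074-1. With counts taken without regard to strand, they were 316 CPM for Mir24-2, 10778 for Mir23b and 97.0 for Mir3074-1, and cluster b held 1.21% of counts. Places by level under that setting were 18 for Mir23a, 125 for Mir27a, 128 for Mir24-2, 19 for Mir23b, 77 for Mir27b and 187 for Mir3074-1, and with opposite-strand counts assigned to the gene there they were the same except 209 for Mir3074-1. From single libraries, places ran from 16 to 17 for Mir23a, 114 to 118 for Mir27a, 116 to 120 for Mir24-2, 73 to 74 for Mir27b and 199 to 203 for Mir3074-1. Per annotated base, Mir27a over Mir27b was 0.223 and Mir23a over Mir24-2 was 72.9. With TMM scaling the log2 difference between libraries was −0.16 for Mir23a and −0.046 for Mir23b. Genes past 2-fold numbered 2 with a mean of at least 10 CPM and 15 with a pseudocount of 0.5. Among a/b pairs, the Mir23 pair was at place 1 and the Mir27 pair at place 5, both for pairs with 100 CPM and without regard to strand, and from single libraries at places 1 to 2 and 6 to 7. Apart from effects of construction (another denominator, strand or set of genes), the cause was not tested. No paired analysis was possible because there is only 1 group. Counting error was widest for Mir3074-1, whose ratio of replicate 2 to replicate 1 was 0.900 (95% interval 0.769 to 1.05), and n = 2 limits every SD.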
